A study of Homo sapiens with 6 samples.

Results

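ERK feedback genes were examined in BaF3-T315I, mouse cells that carry a transfected BCR-ABL with the T315I mutation, after exposure to the HDAC inhibitor I13. A list of 9 genes was looked up by symbol: the phosphatases Dusp4, Dusp5 and Dusp6, the Sprouty genes Spry1, Spry2 and Spry4, the Spred genes Spred1 and Spred2, and the ETS factor Etv5. Of these 9, 8 had a row among the 22413 genes of the deposited table, and Spry1 is not analysed here. The mRNA was sequenced in 3 control samples and in 3 samples treated with 1.1 µM of I13 for 48 h. What the controls received and for how long is not given in the sample labels, all 6 samples carry the same transfected BCR-ABL, and whether the line is 1 clone is not stated. The methods speak in general of independent experiments, without tying this to the sequenced replicates, so the p-values measure only the spread between these samples, which may be technical. The labels name the organism as human, while 22413 of the 22413 gene identifiers are mouse Ensembl identifiers, and the values were read as mouse genes.

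The Ras-ERK pathway carries signals from growth factor receptors and from kinases such as BCR-ABL through GRB2, SOS and Ras to RAF, MEK and ERK. Active ERK switches on its own brakes. Phosphatases of the DUSP family remove the phosphates from ERK, Sprouty proteins interfere between the receptor and RAF, and SPRED proteins bring the Ras inactivator neurofibromin to the membrane. ETV5 is a transcription factor of the PEA3 group whose gene is a common target of the same signal. The mRNA levels of these genes are therefore often read as a trace of ERK output, which was not itself measured here.

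Values are FPKM, the fragments on a gene scaled to its length and to the size of its library, so levels can be set side by side between genes. Whole fragment numbers could be recovered from the FPKM of every gene, and the library totals behind them were 17722950, 17632514 and 17622311 for the controls. The I13 libraries totalled 17623236, 16762119 and 17506309 fragments. Samples are given throughout in the order of replicates 1, 2 and 3. Groups were compared with limma on log2(FPKM + 0.1) in the 12163 genes whose mean reached 0.5 FPKM, a filter that all 8 genes with a row passed. A gene was called at a Benjamini-Hochberg adjusted p below 0.05 over all genes tested if its log2 fold change also reached 0.58 in size. Same-numbered control and I13 samples deviated together only weakly, with correlations of 0.145, 0.301 and 0.219. A second fit, blocked on the replicate number, is given wherever it changes a call. That pairing was read from the same data, and no source says what a number marks. In a bulk sample, fewer expressing cells and less RNA per cell cannot be told apart.

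The markers of the cells were read first. Csf2rb and Csf2rb2, the beta chains of the IL-3 receptor family, and Il3ra, its alpha chain, were present at mean levels over all samples of 459, 429 and 12.9 FPKM. Csf2rb and Csf2rb2 are near-identical copies whose fragments may be split between them. Cd79a, a B-cell receptor component, had a mean level of 23.4 FPKM. The early B lineage genes Vpreb1, Igll1, Il7r, Ebf1 and Pax5 were listed at 0 in at least 2 samples each and at no more than 0.107 FPKM, 2 fragments, in any sample. With the replicate block, Csf2rb (adjusted p = 0.0313 from limma) and Csf2rb2 (adjusted p = 0.0312) were called higher after I13, and without it neither was. Of 12 markers chosen for other cell types, 11 had a row and 7 of these had a mean under 0.5 FPKM, among them Mpo, Cd3e and Csf1r. The summed level of the 11 markers was 80.0, 55.8 and 84.6 FPKM across the controls against 121, 91.5 and 127 FPKM across the I13 samples. Most of that sum was Adgre1, the gene of the macrophage antigen F4/80, with a mean level of 48.1 FPKM, and Pecam1, an adhesion molecule that many blood and endothelial cells carry, with 40.7 FPKM. Adgre1 was called higher with the block (log2 fold change 1.05, adjusted p = 0.0308 from limma). So was Hba-a1, an alpha globin gene with a near-identical copy, on 28 fragments in the controls and 151 after I13. Without the block neither Adgre1 (adjusted p = 0.18 from limma) nor Hba-a1 (adjusted p = 0.116) was called. Lyz2, the myeloid lysozyme gene, read 1.42, 1.77 and 1.47 FPKM across the controls against 2.33, 4.08 and 2.04 FPKM across the I13 samples. All I13 values of Lyz2 lay above all control values, with a log2 fold change of 0.76 (adjusted p = 0.202 from limma without the block and 0.0796 with it). The part of these cell state markers in the results for the feedback genes was not tested.

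The 8 feedback genes covered a wide range of levels. Dusp6 was the most abundant with a mean over all samples of 97.6 FPKM, at or above 95.8% of the genes tested, and was followed by Dusp4 with 81.0 FPKM. Their ranges over the 6 samples overlapped. Spred1 had a mean of 44.2 FPKM, Etv5 of 22.7 FPKM and Spred2 of 14.9 FPKM, and the sample ranges of these 3 genes did not overlap with each other. Spry2 with 5.88 FPKM and Dusp5 with 5.72 FPKM could not be ordered, since their ranges overlapped. Spry4 was the least abundant with 1.47 FPKM, resting on 100 to 146 fragments a sample.

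**Figure D1:**
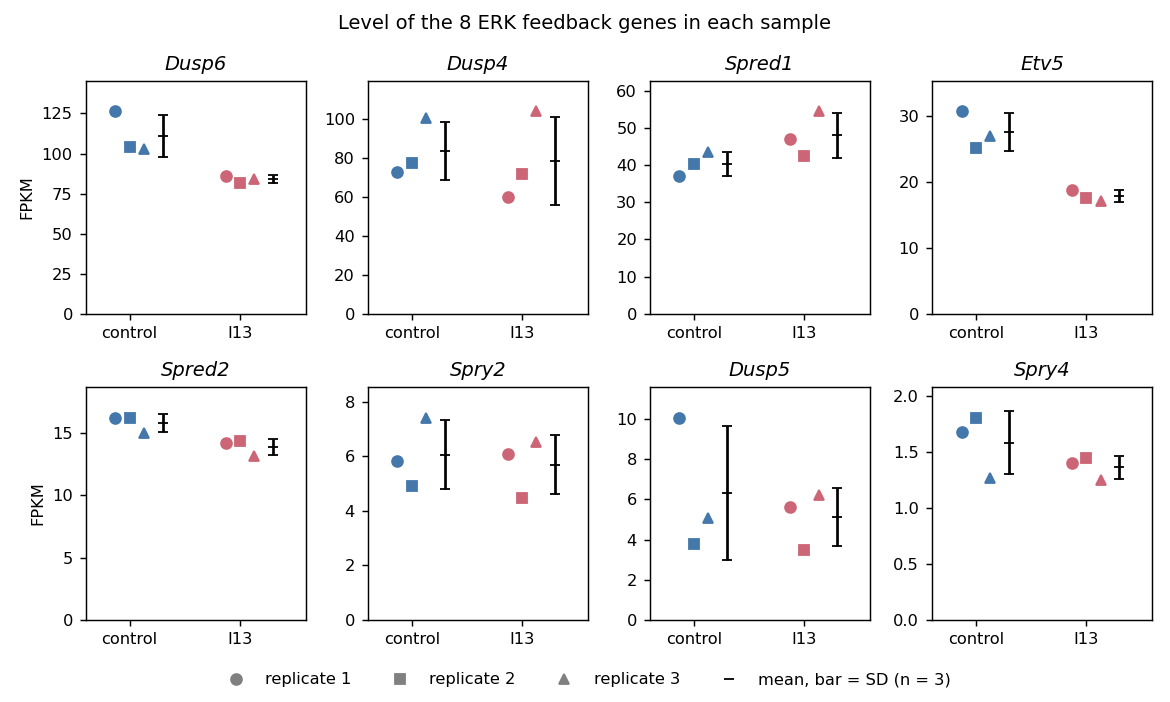
FPKM (vertical axes, each from 0) of the 8 ERK feedback genes in the control and I13 samples, ordered by mean level, with 1 point per sample, its shape giving the replicate number, and a bar for the mean and SD (n = 3). Every I13 sample lies below every control sample for Dusp6, Etv5 and Spred2, while the groups overlap for the other 5 genes.

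Etv5, Dusp6 and Spred2 stood lower in every I13 sample than in any control. Etv5 was the one gene of the 8 called, in the fit with the replicate block. The other 7, Dusp6 among them, passed the test in neither of these fits. In the fit without the block, limma called none of the 8, in either direction, where 0.0411% of all genes tested were called. At an unadjusted p below 0.05, 2 of the 8 genes were lower and none higher, against 10.8% and 7.79% of all genes tested, and voom on the recovered fragments without the block also called none of the 8. With the block, 1 of the 8 was called lower, where 0.526% of all genes tested were. The median log2 fold change of the 8 genes was -0.19, that of all genes tested -0.01, and 7 of the 8 values were negative, as were 6174 of the 12163. For 3 of the 8 genes every I13 sample lay below every control, as for 15.4% of all genes tested, and for none of the 8 above, as for 9.82%. The summed level of the 8 genes was 301, 274 and 302 FPKM across the controls against 239, 237 and 287 FPKM across the I13 samples. That sum overlapped between the groups, and was lower after I13 within each pair of same-numbered samples.

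Etv5 (ENSMUSG00000013089) read 30.6, 25.1 and 26.9 FPKM across the controls against 18.8, 17.4 and 17.1 FPKM across the I13 samples. The highest I13 sample lay well under the lowest control. The means were 27.5 ± 2.83 and 17.8 ± 0.873 FPKM (SD, n = 3 each), a change of -35.4% in mean FPKM. These values rested on 1815 to 2228 fragments per control library and 1200 to 1358 per I13 library, where counting error was 2.12% to 2.89% of a value. The log2 fold change was -0.62 (standard error 0.10, 95% interval -0.87 to -0.38), with an adjusted p of 0.0954 from limma without the block and 0.0384 with it. By its unadjusted p, Etv5 held rank 61 of the 12163 genes tested. The blocked call did not survive the loss of any pair, in settings chosen after seeing the data. The adjusted p was 0.065, 0.284 and 0.0851 from limma when both samples of replicate 1, 2 or 3 were left out. In these fits the log2 fold change was -0.58, -0.67 and -0.61. The fits without replicate 2 or 3 called 0 of the 12163 genes, so the loss there was not particular to Etv5. The log2 fold change of Etv5 stayed between -0.69 and -0.54 over all 20 alternatives. It was -0.54 without control replicate 1, which had the highest level.

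Dusp6 (ENSMUSG00000019960), which encodes a cytoplasmic phosphatase selective for ERK, read 126, 104 and 103 FPKM across the controls. Across the I13 samples it read 86.2, 81.6 and 84.4 FPKM. All I13 values lay under all control values, and the I13 samples varied by only 2.74% (coefficient of variation) against 11.9% in the controls, where replicate 1 was high. The means were 111 ± 13.2 and 84.1 ± 2.31 FPKM (SD, n = 3 each). The log2 fold change of -0.40 (standard error 0.10, 95% interval -0.64 to -0.15) had an adjusted p of 0.131 from limma without the block and 0.0570 with it. On recovered fragments, voom with the block gave an adjusted p of 0.0190, with a log2 fold change of -0.40 that did not reach 0.58 in size. Without control replicate 1 the log2 fold change was -0.30.

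Dusp4 (ENSMUSG00000031530), which encodes a nuclear phosphatase of ERK and related kinases, showed no such separation. It read 72.7, 77.4 and 101 FPKM across the controls against 59.8, 71.5 and 104 FPKM across the I13 samples. Replicate 3 was the highest in both groups, and replicate 1 the lowest. The log2 fold change was -0.12 (SE 0.22, with an adjusted p of 0.808 from limma), and its 95% interval of -0.63 to 0.39 includes changes as large as that of Etv5. With the block the interval narrowed to -0.32 to 0.09. The ratio of Dusp6 to Dusp4 was a measure that was not planned. It ran from 1.02 to 1.74 in the controls and from 0.812 to 1.44 after I13. The groups overlapped (exact permutation test ignoring the pairs, two-sided, p = 0.5). Within the pairs of same-numbered samples the log2 ratio was lower after I13 each time, by -0.27, -0.24 and -0.33, where an exact sign-flip test chosen after seeing the data gave p = 0.25, the smallest that 3 pairs allow.

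Dusp5 (ENSMUSG00000034765), which encodes a nuclear phosphatase specific for ERK, read 10.1, 3.76 and 5.07 FPKM across the controls against 5.64, 3.498 and 6.24 FPKM across the I13 samples. Control replicate 1, on 442 fragments, stood apart from the other 5 samples, which held 145 to 270. The log2 fold change was -0.21 (SE 0.37, with an adjusted p of 0.795 from limma), and without control replicate 1 it was 0.18. Its interval of -1.09 to 0.67 was the widest of the 8.

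The Sprouty genes were low and did not separate the groups. Spry2 (ENSMUSG00000022114), whose product binds GRB2 and the ubiquitin ligase CBL, read 5.82, 4.92 and 7.43 FPKM across the controls against 6.10, 4.46 and 6.55 FPKM across the I13 samples. In both groups replicate 3 was highest and replicate 2 lowest. Its log2 fold change was -0.08 (SE 0.20, with an adjusted p of 0.850 from limma, 95% interval -0.55 to 0.38). Spry4 (ENSMUSG00000024427), another Sprouty inhibitor of the pathway, read 1.67, 1.81 and 1.26 FPKM across the controls against 1.40, 1.44 and 1.25 FPKM across the I13 samples. The I13 values lay within the control range or just under it. Its log2 fold change was -0.19 (SE 0.20, with an adjusted p of 0.647 from limma, 95% interval -0.66 to 0.28).

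The Spred genes had log2 fold changes of opposite sign, and neither passed the test. Spred1 (ENSMUSG00000027351) read 37.1, 40.2 and 43.5 FPKM across the controls against 47.1, 42.6 and 54.5 FPKM across the I13 samples. It was the only gene of the 8 with a positive log2 fold change, 0.25 (SE 0.12, with an adjusted p of 0.305 from limma without the block and 0.124 with it), and I13 replicate 2 lay below control replicate 3. Spred2 (ENSMUSG00000045671) read 16.2, 16.2 and 14.98 FPKM across the controls against 14.2, 14.3 and 13.1 FPKM across the I13 samples. All I13 values lay under all control values, with a log2 fold change of -0.19 (SE 0.09, with an adjusted p of 0.315 from limma without the block and 0.170 with it). The difference within the 3 pairs was nearly the same, -0.19, -0.18 and -0.19 on the log2 scale. The ratio of Spred1 to Spred2, a measure chosen after their values were seen, was 2.29, 2.48 and 2.91 in the controls and 3.31, 2.97 and 4.16 after I13, higher in every I13 sample than in any control. The log2 ratio differed by 0.44, and the exact permutation test (ignoring the pairs, two-sided) gave p = 0.1, the smallest that 3 against 3 samples allow. Within the pairs of same-numbered samples the log2 ratio was higher after I13 by 0.54, 0.26 and 0.52. An exact sign-flip test on these differences gave p = 0.25, the smallest that 3 pairs allow.

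**Figure D2:**
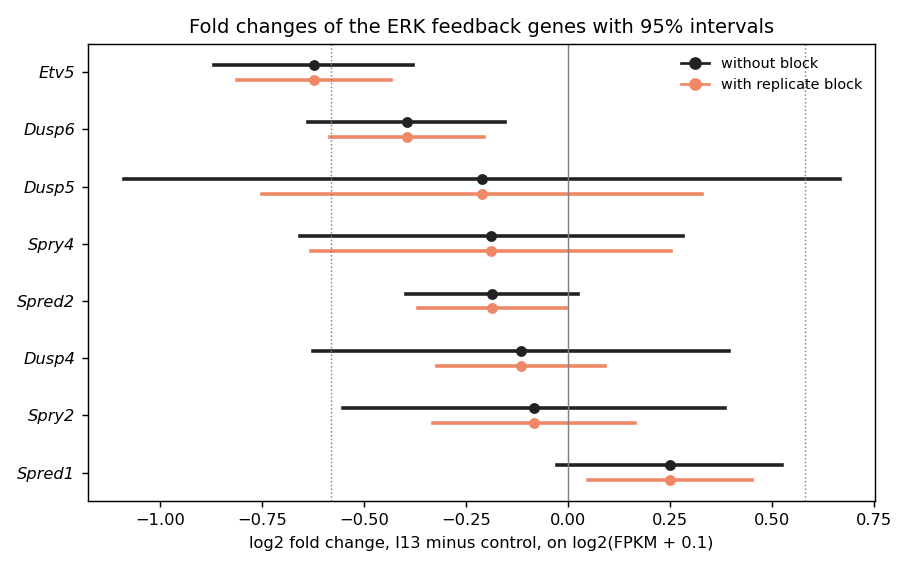
Log2 fold change of each of the 8 genes (I13 minus control, on log2(FPKM + 0.1)) as points with 95% intervals from limma, without the block in black and with the replicate block in orange. Dotted lines mark 0.58 in either direction; the intervals of Etv5 and Dusp6 lie below 0 in both fits, and those of Spred1 and Spred2 include 0 without the block only.

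Within the pairs of same-numbered samples, Etv5 differed by -0.70, -0.52 and -0.65 on the log2 scale and Dusp6 by -0.55, -0.35 and -0.28. Spred1 differed by 0.34, 0.08 and 0.32, higher in each of the 3 pairs. Spry4 differed by -0.24, -0.30 and -0.02, lower in each pair, with the pair of replicate 3 close to 0. For Dusp4, Dusp5 and Spry2 the pairs did not share a direction, with ranges of -0.28 to 0.05, -0.83 to 0.29 and -0.18 to 0.07. In all 3 pairs, 4 of the 8 genes were lower and 1 higher, against 27.3% and 24.1% of all genes tested.

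**Figure D3:**
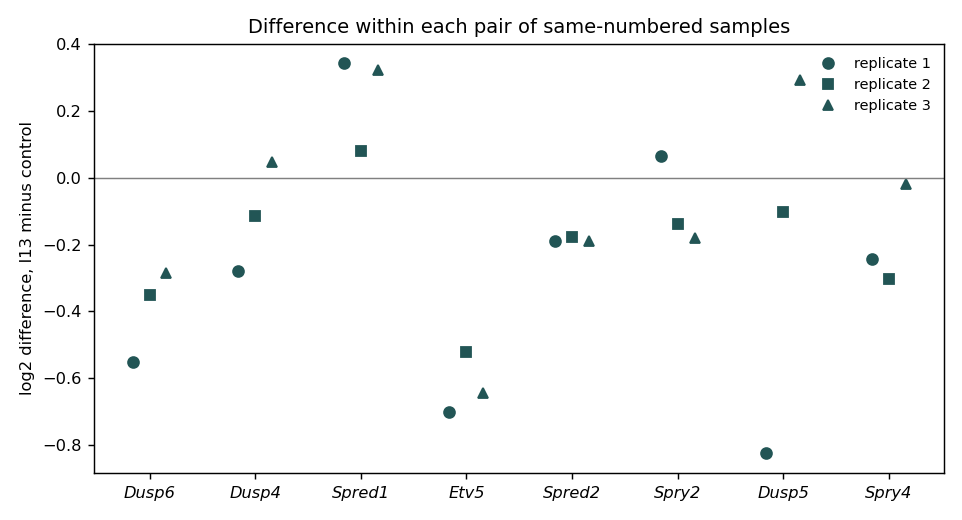
Difference of log2(FPKM + 0.1) between the I13 and the control sample of the same replicate number (vertical axis) for each of the 8 genes, with 1 point per pair. The points of Etv5, Dusp6, Spred2 and Spry4 lie below 0, those of Spred1 above 0, and those of Dusp4, Dusp5 and Spry2 on both sides.

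The 8 genes did not vary as 1 block across the samples. Over the 6 samples, the log2 values of Dusp6 and Etv5 had a Pearson correlation of 0.97, and with the group means removed it was 0.88, where control replicate 1 is the high sample of both genes. The coefficient of Dusp4 was 0.01 with Dusp6 and 0.06 with Etv5. Spred1 and Spred2 ran opposite (-0.94, and -0.90 with the group means removed). These coefficients describe 6 points that share 2 groups and 3 replicate numbers, and carry no test. Across all genes tested, the 5 whose log2 values were most like those of Dusp6, the most abundant member, were Med27, a subunit of Mediator (Pearson r = 0.995, 6 samples), BC029214 and the protease gene Capn10 (0.992 each), the mitochondrial ribosomal RNA mt-Rnr1 (0.991) and Prkar1a, a regulatory subunit of protein kinase A (0.989). The level of mt-Rnr1 was 260, 196 and 201 FPKM across the controls against 169, 156 and 166 FPKM across the I13 samples, with control replicate 1 highest, as for Dusp6. None of these 5 passed the test (adjusted p = 0.161 to 0.282 from limma).

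Other genes of the pathway were read from 3 further lists. The paralogs of the feedback genes were 11 names, of which 8 had a row and 6 passed the filter on low values. None was called without the block, where 0.0411% of all genes tested were, or with it, where 0.526% were called lower and 1.36% higher. At an unadjusted p below 0.05, 1 of the 6 was higher and none lower, against 7.79% and 10.8% of all genes tested. The median log2 fold change was 0.38. Dusp1, an immediate early phosphatase that acts mostly on p38 and JNK, read 1.88, 1.39 and 1.89 FPKM across the controls against 3.56, 3.14 and 2.67 FPKM across the I13 samples, with no overlap. Its log2 fold change was 0.83 (SE 0.18, with an adjusted p of 0.113 from limma without the block and 0.0635 with it). Dusp7, another cytoplasmic phosphatase of ERK, had a log2 fold change of -0.10, Dusp10 of 0.38 and Dusp16 of 0.53, the last 2 encoding phosphatases of JNK and p38. Spry3 was listed at 0 in 5 of the 6 samples, with 1 fragment in control replicate 2, and Etv4, another PEA3 factor, at 0.0731 to 0.457 FPKM, under the filter.

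Transcripts known to respond to ERK but outside the feedback genes formed a further list. Of 21 names, 16 had a row and 12 passed the filter. A positive log2 fold change was found for 11 of the 12 and for 5989 of the 12163 genes tested. The median of the 12 was 0.30, that of all genes tested -0.01. Without the block none was called, against 0.0411% of all genes tested. At an unadjusted p below 0.05, 4 of the 12 were higher and none lower, where 7.79% and 10.8% of all genes tested were. With the block 3 of the 12 were called higher, where 1.36% of all genes tested were. Phlda1, an ERK-induced gene, read 2.53, 0.926 and 3.40 FPKM across the controls against 6.00, 4.41 and 9.59 FPKM across the I13 samples, a log2 fold change of 1.61 (adjusted p = 0.159 from limma without the block and 0.0384 with it). Every I13 value of Phlda1 was above every control value.

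Ier3, an immediate early gene linked to cell survival, read 45.1, 13.6 and 37.9 FPKM across the controls against 81.8, 34.3 and 78.1 FPKM across the I13 samples. Replicate 2 was low in both groups, so the groups overlapped while each pair differed the same way, with a log2 fold change of 1.07 and an adjusted p of 0.308 from limma without the block and 0.0313 with it. Lif, the gene of the cytokine leukemia inhibitory factor, read 15.8, 10.1 and 19.9 FPKM across the controls against 24.5, 19.4 and 48 FPKM across the I13 samples, with a log2 fold change of 0.94 and an adjusted p of 0.236 without the block and 0.0392 with it. In settings chosen after seeing the data, these 3 genes were still called in the blocked fit without both samples of replicate 1 (adjusted p = 0.0319 to 0.0492 from limma). They were not called without replicate 2 (adjusted p = 0.209 to 0.297) or without replicate 3 (adjusted p = 0.0788 to 0.0836), fits that called 0 of the 12163 genes. Their log2 fold changes in these fits were 0.95 and 1.09 for Ier3, 1.34 and 1.67 for Phlda1, and 0.95 and 0.78 for Lif.

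Among the most abundant genes of this list, Myc, the growth-promoting transcription factor, had a mean of 148 FPKM in the controls and 192 FPKM after I13 with a log2 fold change of 0.37 (SE 0.15, with an adjusted p of 0.252 from limma). The immediate early gene Ier2 (0.16) and the survival gene Mcl1 (0.05) had small log2 fold changes with adjusted p of 0.726 and 0.832 from limma. Egr1, the classical early target of ERK, was close to absent at 0.0127 to 0.138 FPKM, 1 to 11 fragments a library, and Ccnd1, the cyclin D1 gene, was listed at 0 to 0.0849 FPKM on at most 7 fragments.

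Of the 29 genes of the cascade itself, 29 had a row and 28 passed the filter. None was called without the block, against 0.0411% of all genes tested, or with it, against 0.526% lower and 1.36% higher. The median log2 fold change was -0.07. At an unadjusted p below 0.05, 6 of the 28 were higher and 5 lower, against 7.79% and 10.8% of all genes tested. Ptpn11, Rasa1, Braf, Shoc2 and Rps6ka3 were among the higher genes, with log2 fold changes of 0.31 to 0.41. Nf1, Map2k2, Elk3 and Elk4 were among the lower ones, with log2 fold changes of -0.36 to -0.28, and the genes of both directions were named after their values were seen. Nf1 encodes the neurofibromin that SPRED proteins bind, and its level was 7.07, 7.17 and 6.75 FPKM in the controls and 6.53, 5.69 and 4.79 FPKM after I13 (adjusted p = 0.268 from limma). The adaptor gene Grb2 was the most abundant of the list, with a log2 fold change of -0.05. Rasa3, a Ras GTPase activator, and the ERK gene Mapk3 had log2 fold changes of -0.10 and -0.05, with adjusted p of 0.608 and 0.853 from limma.

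**Figure D4:**
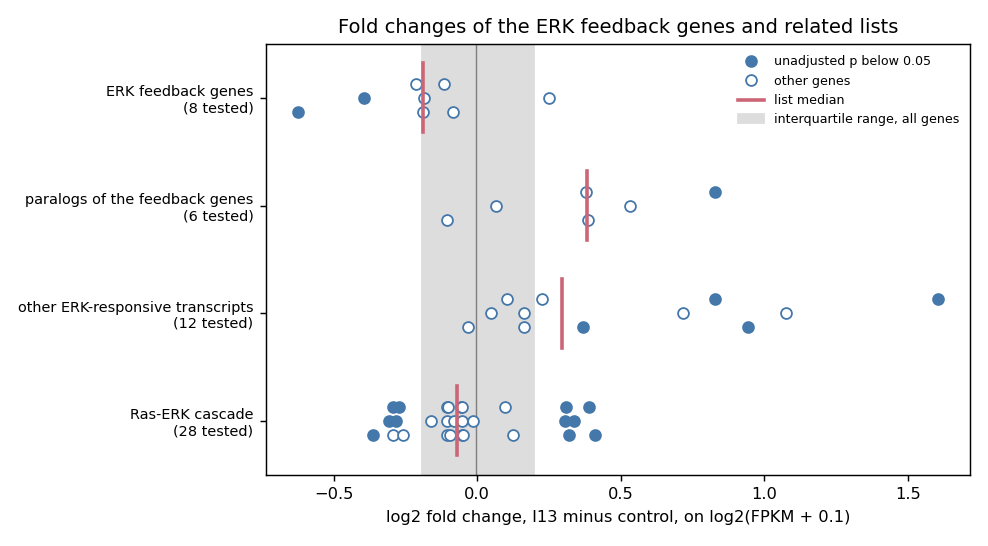
Log2 fold change (I13 minus control, horizontal axis, on log2(FPKM + 0.1)) of each tested gene in the 4 lists, with filled points for an unadjusted p below 0.05, a red line for the list's median and a grey band for the interquartile range of all genes tested. The medians are -0.19 for the feedback genes, 0.38 for their paralogs, 0.30 for other ERK-responsive transcripts and -0.07 for the cascade.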

How the data were processed

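The authors deposited FPKM values for 6 samples, per the file headers 1 column each, with replicates not pooled. The submitters' processing notes name Trimmomatic, HISAT2, Cufflinks and HTSeq without versions, and hg38 as the build, which does not match the mouse identifiers. No mouse reference was used here, so no coordinates or sequences are given. 0 columns were left without a sample.

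Fragments were recovered as the smallest whole numbers, within 0.002 fragments, that give the values of all 6 samples with a whole gene length, for 22413 of 22413 genes; a divisor common to all 6 numbers and the length would be lost. Intervals on them cover counting error only. Tests used limma 3.58.1 in R 4.3.3 (eBayes with a trend), checked on simulated data. Correlations of same-numbered samples' deviations from their group means were 0.145, 0.301 and 0.219, and those of other pairs -0.258 to 0.0503. All 3 were above 0.1, so the numbers, which come from the labels, were taken to pair the samples. Deviations within a group sum to 0, so the correlations of the other pairs are not independent of these 3. The pairing was read from the same data as the blocked fit, and no source says what a number marks.

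The members and lists were chosen with earlier results of these data known. Named are all members, genes of the other lists called in either fit, the 4 most abundant of each of those lists and the 5 genes most like the most abundant member. Some genes of the cascade are counted but not reported here by name. Alternatives were other pseudocounts, filters, scalings and eBayes settings, voom, the block and leaving out samples. Figures used matplotlib 3.10.9.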

Additional observations from a re-analysis of the deposited data

How the results depend on the processing

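The number of genes called between I13 and control, 5 by limma, was 2 under each of a 0.01 pseudocount, quantile normalization and median-ratio scaling, and 8 when no filter or no eBayes trend was used. With the replicate block it was 230, and with voom and the block 505. Of the feedback genes, 1 was called in each of these blocked fits, Etv5, and the block changed no other call among them. In the same 2 fits 1 and 2 of the feedback genes had an adjusted p below 0.05, as did 364 and 1473 of the 12163 genes tested. Leaving out 1 sample called 0 to 0 genes (1478 to 2482 had an unadjusted p under 0.05), and leaving out both samples of replicate 1, 2 or 3 in the blocked fit gave 83, 0 and 0, in fits with fewer samples; that setting was chosen after seeing the data.

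Etv5, Dusp6, Spred1, Spred2 and Spry4 kept their direction under every alternative run for them; Spry4 was not tested with a mean FPKM of at least 2. Leaving out 1 sample moved the log2 fold change of Spry4 from -0.19 to -0.33 without control replicate 3 and to -0.09 without control replicate 2, and that of Spred1 from 0.25 to 0.16 without I13 replicate 3. The log2 fold change of Dusp4 spanned -0.34 to 0.060 when 1 sample was left out, above 0 if this was control replicate 3 or I13 replicate 1. That of Dusp5 spanned -0.52 to 0.18, above 0 if control replicate 1 or I13 replicate 2 was missing, and was 0.10 with the block without replicate 1. That of Spry2 spanned -0.22 to 0.080, above 0 if control replicate 3 or I13 replicate 2 was missing. The cause was not tested.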

Other observations

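Replicate 3 held the highest value of its group, in control and I13 alike, for several genes of the lists. The genes in this paragraph were chosen after their values were seen. Dusp10 was listed at 4.14 FPKM in control replicate 3 against 1.87 and 1.98 in the other controls, and at 5.13 FPKM in I13 replicate 3 against 2.89 and 2.37. Csf2rb was listed at 463 and 839 FPKM in the replicate 3 samples of the control and I13 groups, where the other samples held 239 to 477 FPKM. Dusp4 and Lif had the same order of their highest samples. Emp1, a membrane protein gene on the list of ERK-responsive transcripts, held 37 fragments in I13 replicate 3 and 0 to 4 in each of the other 5 samples.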
